A study of Mus musculus with 15 samples.

Results

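The probes described here are promoter array probes whose methylated-DNA signal leaned towards the Cy5 channel on every array. Members were chosen by measured values, the ratio itself and the scanner's brightness flags. A probe was a member if its deposited log10 ratio of Cy5 over Cy3 was above 0 on all 7 arrays of its part, averaged at least 0.15 (1.41-fold), and was well above background in both channels on all 7. Of 80567 promoter probes 70830 were bright in that sense, and 2851 of these were members, 1278 on array part 1 and 1573 on part 2. They made up 4.03% of the bright probes and 3.54% of all probes. A RefSeq symbol could be given to 2646 of them, which named 2077 genes, 14.6% of the 14261 genes with a bright probe.

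The compared mouse embryonic stem (ES) cell lines were TKO, which is deficient in DNA methylation because it lacks Dnmt1, Dnmt3a and Dnmt3b, and J1, its wild type. Both grew without feeders for 2 passages, with LIF and serum, and the labels name no treatment for either. DNA bound by an antibody against methylated cytosine (methylated DNA immunoprecipitation, MeDIP) came from 2 ug of genomic DNA per line, and the labels put TKO in Cy5 and J1 in Cy3 on all 14 arrays. RNA of both lines was set side by side on 3 expression arrays, replicate 2 with the dyes swapped. Only 1 line of each genotype was measured, and p-values cover the spread between arrays, made from different passages of the cells. The labels give passage 37 for J1 on some arrays only.

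In mammals DNA methylation sits on cytosines of CpG pairs. It is put down by Dnmt3a and Dnmt3b and copied at replication by Dnmt1. Promoters dense in CpG are mostly unmethylated, while CpG-poor promoters and those of many germline genes carry methylation in ES cells. MeDIP takes up DNA in proportion to methylated CpG, so a region with few CpG gives little signal whatever its state.

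No MeDIP array had its dyes exchanged, so dye and line cannot be told apart there. By the labels the members are higher in the channel of the line that lacks the methyltransferases. The ratios are therefore given as Cy5 (labelled TKO) over Cy3 (labelled J1), and neither channel is read as the methylated line. The ratio chose the members, so it is a description and supports nothing by itself.

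The windows below are examples of promoters with a member just before the start. Of the 2077 genes with a member, 296 have one inside these 250 bases. They are the 250 bases before the RefSeq start of genes that the naming rules picked, that have a member probe at those distances from the start listed on the array, and that have a single window in RefSeq (GRCm38.p6). They are written 5′ to 3′ on the gene's strand, with each CpG in capitals. The Gpr33 window is chr12:52028064-52028313 on the minus strand. The Efcab5 window is chr11:77188969-77189218 on the minus strand. The Prl7c1 window is chr13:27780805-27781054 on the minus strand. The Col10a1 window is chr10:34389731-34389980 on the plus strand. The Prl4a1 window is chr13:28015962-28016211 on the plus strand. The Rbp3 window is chr14:33953753-33954002 on the plus strand. The Krt25 window is chr11:99322952-99323201 on the minus strand. The Arhgap35 window is chr7:16614994-16615243 on the minus strand. The sources used here name no build for the array's own positions, and a probe is matched to a window by its distance and not by coordinate.
Gpr33: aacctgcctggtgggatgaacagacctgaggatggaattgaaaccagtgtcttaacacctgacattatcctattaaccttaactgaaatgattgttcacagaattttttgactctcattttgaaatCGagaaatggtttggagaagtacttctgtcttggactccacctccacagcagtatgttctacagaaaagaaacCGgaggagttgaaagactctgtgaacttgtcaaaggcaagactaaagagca
Efcab5: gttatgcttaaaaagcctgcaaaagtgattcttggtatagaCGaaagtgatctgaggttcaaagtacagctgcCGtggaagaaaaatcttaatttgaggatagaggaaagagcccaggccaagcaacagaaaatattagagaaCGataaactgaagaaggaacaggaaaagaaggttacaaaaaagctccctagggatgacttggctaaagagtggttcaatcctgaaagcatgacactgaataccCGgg
Prl7c1: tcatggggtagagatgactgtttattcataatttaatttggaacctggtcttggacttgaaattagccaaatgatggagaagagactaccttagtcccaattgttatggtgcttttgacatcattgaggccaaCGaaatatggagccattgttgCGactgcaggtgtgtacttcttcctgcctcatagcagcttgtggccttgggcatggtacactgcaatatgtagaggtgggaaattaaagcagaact
Col10a1: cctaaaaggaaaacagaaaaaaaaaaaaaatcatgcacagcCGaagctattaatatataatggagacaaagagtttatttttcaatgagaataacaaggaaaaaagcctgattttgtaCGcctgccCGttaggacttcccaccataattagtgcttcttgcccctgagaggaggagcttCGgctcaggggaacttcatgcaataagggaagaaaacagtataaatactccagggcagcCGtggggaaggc
Prl4a1: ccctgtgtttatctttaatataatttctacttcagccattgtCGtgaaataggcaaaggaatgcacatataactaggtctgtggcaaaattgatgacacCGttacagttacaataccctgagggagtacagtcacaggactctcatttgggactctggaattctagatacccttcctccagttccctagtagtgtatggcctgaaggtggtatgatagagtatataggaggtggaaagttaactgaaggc
Rbp3: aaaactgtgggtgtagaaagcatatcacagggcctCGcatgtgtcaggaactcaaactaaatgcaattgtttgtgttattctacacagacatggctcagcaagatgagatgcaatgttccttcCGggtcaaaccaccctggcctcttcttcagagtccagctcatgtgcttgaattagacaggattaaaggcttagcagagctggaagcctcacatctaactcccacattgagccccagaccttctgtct
Krt25: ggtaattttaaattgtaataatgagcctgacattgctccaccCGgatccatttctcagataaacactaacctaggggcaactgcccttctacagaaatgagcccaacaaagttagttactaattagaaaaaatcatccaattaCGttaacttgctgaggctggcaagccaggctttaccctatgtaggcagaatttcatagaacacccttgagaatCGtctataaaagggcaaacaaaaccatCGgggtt
Arhgap35: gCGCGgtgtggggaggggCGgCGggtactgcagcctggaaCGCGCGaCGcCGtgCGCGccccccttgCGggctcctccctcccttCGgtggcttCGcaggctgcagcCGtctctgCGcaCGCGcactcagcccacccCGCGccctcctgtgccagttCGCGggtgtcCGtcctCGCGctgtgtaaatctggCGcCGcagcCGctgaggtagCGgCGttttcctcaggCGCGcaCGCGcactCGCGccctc

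Of these 8 windows 7 are poor in CpG. Gpr33, which encodes an orphan chemoattractant-like receptor, has 2 CpG in 250 bases, and so have the placental prolactins Prl7c1 and Prl4a1 and Rbp3, the retinoid carrier of the photoreceptor matrix. Efcab5 and the hair follicle keratin Krt25 have 4 each, and Col10a1, a collagen of hypertrophic cartilage, has 5. Arhgap35 is the exception with 36 CpG and a GC content of 73.6%, against 40.8% to 46.8% in the other 7.

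The same held when all genes with 1 RefSeq window and a member inside it were counted. The median number of CpG in the 250 bases was 4 (quartiles 2 and 6) for the 190 genes with a member probe inside the window, against 13 (quartiles 5 and 20) for 6613 genes with a bright probe there and no member. The median GC content was 45.6% and 58.0%. With a member at any distance the contrast was smaller. The 1335 such genes had a median of 6 CpG (quartiles 3 and 15) and 52.4% GC. The 8018 genes with a bright probe and no member had 13 CpG (quartiles 5 and 21) and 58.4% GC. Motifs were searched on both strands. The GC box GGGCGG was found in 18.9% of the windows with a member inside and in 52.6% of the windows without. The TATA box TATAAA was found in 20% and 9.95%, and the CCAAT box CCAAT in 35.8% and 37.2%. The E box CACGTG was found in 4.74% and 8.06%, and the E2F site TTCCCGC in 1.58% and 6.00%. GGGCGG holds a CpG, as do CACGTG and TTCCCGC. Over all 22862 RefSeq genes with 1 window the shares were 32.4% for GGGCGG, 13.6% for TATAAA, 34.7% for CCAAT, 5.92% for CACGTG and 3.77% for TTCCCGC. A match is a run of letters and was not tested as a binding site.

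The share of members followed the CpG count but not evenly. Of bright probes inside windows with 0 to 2 CpG 5.48% were members, with 3 to 5 CpG 8.64%, with 6 to 10 2.91%, with 11 to 20 0.441% and with 21 or more 0.923%. Signal moves with CpG as well. The median log2 signal of those probes was 9.58 in windows with 0 to 2 CpG and 10.5 in windows with 21 or more. Within the dimmest tertile of genes by signal in the window, the median CpG count was 4 with a member and 11 without, and within the middle tertile 4 and 14. In the brightest tertile it was 4.5 and 14, there with only 6 windows that hold a member.

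**Figure D1:**
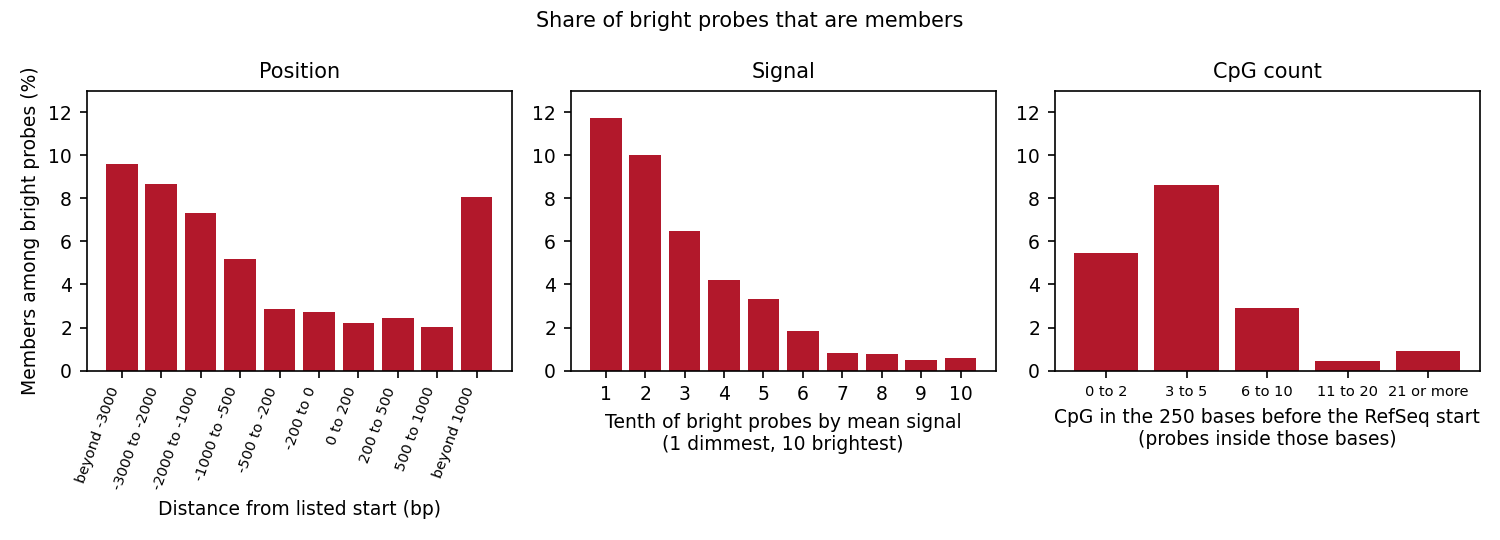
Share of bright probes that are members (y axes, percent, from 0), by distance from the listed start in bp, by decile of mean signal, and by the number of CpG in the 250 bases before the RefSeq start. The bars are highest for far upstream probes (9.57%), for the dimmest decile (11.7%) and for windows with 3 to 5 CpG (8.64%).

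Members lay far upstream of transcription starts more often than other bright probes did. Of bright probes within 500 bp of the listed start 2.57% were members (1081 of 42131). Of those 1000 bp or more upstream 7.99% were (731 of 9154). The share was 5.17% between 1000 and 500 bp upstream, 7.32% between 2000 and 1000 bp and 9.57% beyond 3000 bp. Downstream it was lowest between 500 and 1000 bp, at 2.04% (26 of 1272), and 8.07% beyond 1000 bp. The median member lay 605.5 bp upstream of the start, while the median bright probe lay 237 bp upstream. All these are counts over probes of the same arrays, with no test.

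The word bright applies to the members only as a lower bound. They are among the dimmer of the bright probes. Of the dimmest decile of bright probes 11.7% were members, against 0.579% of the brightest decile, and 54.0% of all members came from the 2 dimmest deciles. The median log2 processed signal of members was 8.97 in Cy5 and 8.25 in Cy3, against 10.1 in both channels for all bright probes. The difference by position was present at each level of signal. Members were 13.9% of probes 1000 bp or more upstream and 6.57% of probes within 500 bp in the dimmest tertile. The shares were 4.81% and 1.89% in the middle tertile, and 1.60% and 0.426% in the brightest tertile.

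By chromosome the share of members ran between 1.18% on Y (3 of 254 bright probes) and 6.09% on chromosome 12 (144 of 2365). The X chromosome (2.38%) and chromosome 8 (2.38%) were low, and chromosome 15 (6.02%) was next to highest. By the array's own design classes, 4.62% of bright probes called promoter were members, 3.11% of those inside a gene and 6.82% of those downstream of one. For 42 members, 1.47% of them, RefSeq places the gene named on the array on another chromosome than the probe. The same was true of 0.494% of all bright probes. These probes are given no RefSeq name here.

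Across the arrays the members were of unequal height. Their median log10 ratio was 0.135, 0.275, 0.190, 0.185, 0.164, 0.261 and 0.203 on replicates 1 to 7 of part 1. It was 0.136, 0.282, 0.198, 0.202, 0.148, 0.241 and 0.213 on part 2. Replicates 2 and 6 were the highest and replicate 1 the lowest on both parts. The other bright probes had medians between -0.0190 and -0.00966 on the same 14 arrays. The arrays of a part correlated with each other at r between 0.343 and 0.754 over all probes, given as a description since the arrays share their probes. On each MeDIP array 88.2% to 99.7% of probes were well above background in a channel, on the expression arrays 38.6% to 66.8%, and expression replicate 3 had 8386 spots marked as uneven. The number of arrays limits the precision.

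**Figure D2:**
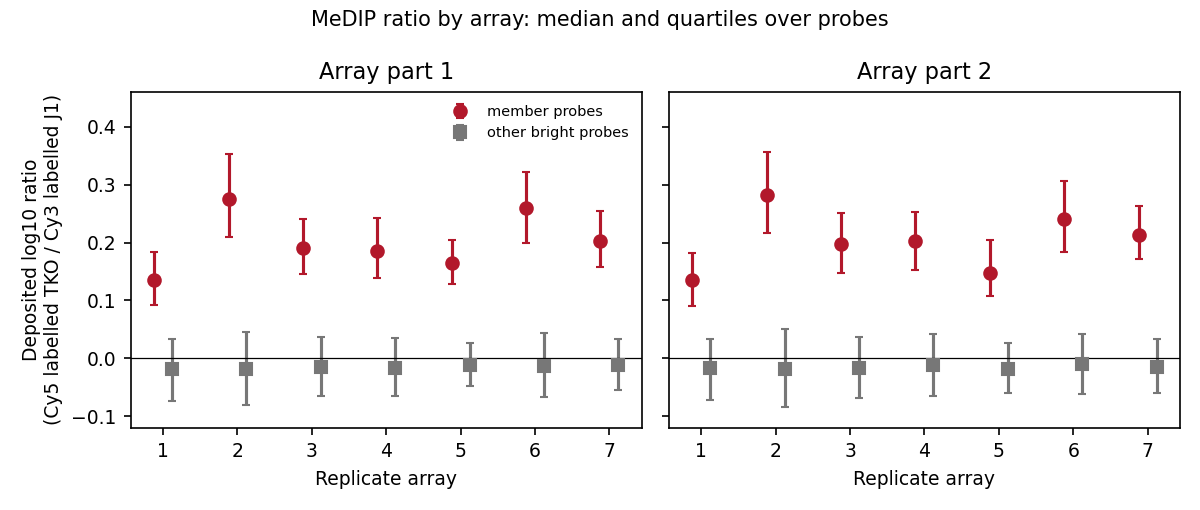
Deposited log10 ratio, Cy5 (labelled TKO) over Cy3 (labelled J1), on each of the 7 replicate arrays of both parts, as median (symbol) and quartiles (bars) over probes, members beside other bright probes. Member medians sit between 0.135 and 0.282, the other medians between -0.0190 and -0.00966.

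Most members were only moderately shifted. The mean ratio over 7 arrays had a median of 0.195 (1.57-fold) over members, with quartiles of 0.170 and 0.238, and reached 0.647 (4.44-fold). A mean under 0.20 was found for 1536 members (53.9%), and 205 (7.19%) reached 0.30. The SD over the 7 arrays had a median of 0.0797. For comparison of numbers only, 726 bright probes met the opposite condition, below 0 on all arrays with a mean of at most -0.15.

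The threshold cut through a continuous range. The 3 members just inside it were probes of 2010305C02Rik, the Y-linked 4933439C20Rik and Klhl28. Those just outside were probes of Ppan, Gp5 and Mill1, and all 6 means round to 0.15.

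The size of the ratios depended on how the signals were corrected and centred. With normexp on the raw signals and median centring in place of the deposited ratios, the median over the members was 0.111, and 702 of the 2851 still met the rule. In all, 787 probes met it in that setting. The mean stayed above 0 for 97.8% of the members, and all 7 arrays did for 57.6%. With loess on the processed signals 87.1% of the members met the rule, and their median was 0.189.

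Members were grouped in part. They fell into 2256 tiled regions (runs of probes with gaps of at most 2000 bp) of 15368 with a bright probe. In 1768 regions the member was alone, 400 regions held 2 members, 73 held 3, 11 held 4 and 4 held 5. So 62.0% of the members had no second member in their region. Bright probes next to a member, though short of the rule, leaned the same way. Their median mean ratio was 0.0465 at 200 to 400 bp from the nearest member (2255 probes, 75.3% above 0), 0.0131 at 400 to 800 bp and -0.00276 at 800 to 1600 bp. In regions without a member it was -0.0215, and 36.1% of probes were above 0. Neighbouring probes can read the same DNA fragments, so they are not independent of the member.

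**Figure D3:**
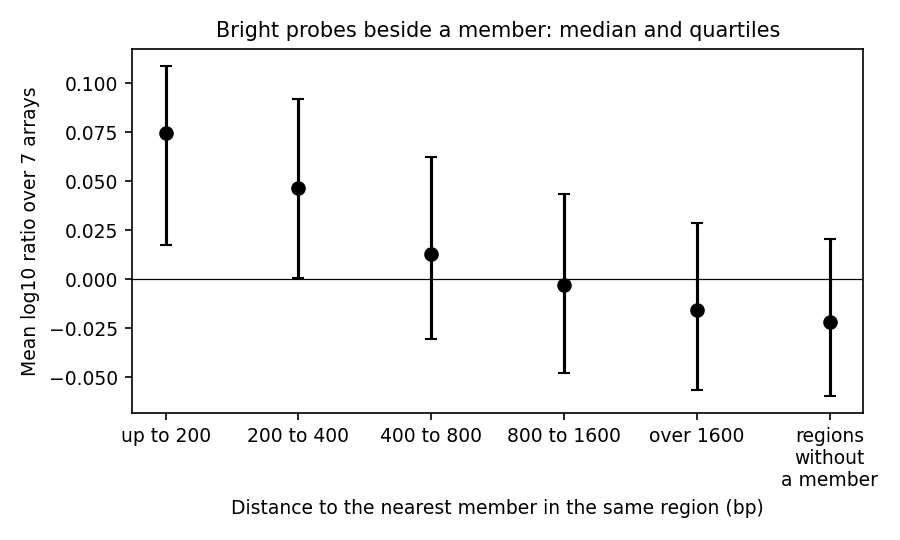
Mean log10 ratio over 7 arrays (y axis) of bright probes that are not members, by distance in bp to the nearest member of the same region (x axis), with bright probes of regions without a member at the right. Symbols are medians and bars quartiles over probes. The medians are 0.0746 up to 200 bp and -0.0156 over 1600 bp.

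The highest single probe belonged to Trpd52l3. Over the 7 arrays its log10 ratio was 0.521 at the lowest, 0.660 at the median and 0.791 at the highest, with a mean of 0.647 ± 0.0953 (SD, n = 7). It lay 973 bp upstream of the start on chromosome 19. No other member had a mean as high.

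Next came Tcp10b, a t-complex gene on chromosome 17, with arrays between 0.356 and 0.615 and a median of 0.492. Tcp10a is listed for the same probe, and near-identical copies cannot be told apart by it. Mapk6, an atypical MAP kinase, ran between 0.3 and 0.778 with a median of 0.475. Its SD of 0.158 was next to those of Adh7 and Hbs1l the widest of the 12 highest genes.

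Gpr33 ran between 0.334 and 0.579 with a median of 0.545 at its probe 176 bp upstream, and 2 more of its probes were members. Efcab5 ran between 0.380 and 0.744 with a median of 0.446, the highest value being on replicate 2. Hbs1l, a ribosome rescue factor, ran between 0.250 and 0.806 with a median of 0.469. The highest value of Hbs1l was on replicate 5, where the members as a whole were low.

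The ranking takes only probes with a RefSeq symbol. A member listed for BC029019 (0.495) and one listed as Rplp2 (0.469) are therefore not in it. The remaining 6 of the 12 highest genes so ranked had means between 0.430 and 0.468. They are the X-linked homeobox gene Rhox2a, Kif27 and Deup1, which serve motile cilia and their basal bodies, Klhl20, an adaptor of a ubiquitin ligase, Adh7, the alcohol dehydrogenase of stomach epithelium, and Popdc2 of heart and skeletal muscle. With normexp 8 of the 12 genes still met the rule at this probe, and Tcp10b (0.192), Gpr33 (0.159), Hbs1l (0.145) and Kif27 (0.156) did not.

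**Figure D4:**
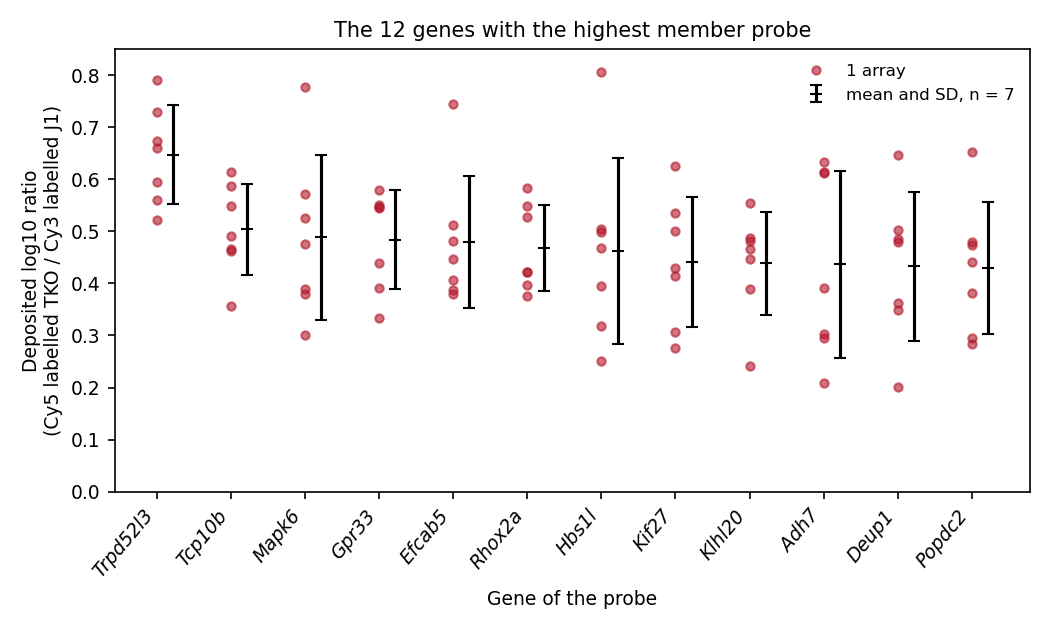
Deposited log10 ratio, Cy5 (labelled TKO) over Cy3 (labelled J1), of the highest member probe of 12 genes (x axis). Points are the 7 arrays and black bars the mean and SD. Every point is above 0, as the rule requires, and the spread is widest at Adh7 (0.179) and Hbs1l (0.179).

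Of the 10 regions with the most members, 3 had every bright probe among them. The region of Prl7c1, a placental prolactin on chromosome 13, had all 5 of its probes as members, with means between 0.199 and 0.321. At Rbp3 on chromosome 14 the 5 bright probes had means between 0.160 and 0.329. The other such region is listed on the array as Rplp2 on chromosome 12, with 5 bright probes between 0.156 and 0.469. RefSeq places the ribosomal protein gene Rplp2 on another chromosome. With normexp and median centring all Prl7c1 members but the one 258 bp inside still met the rule. At Rbp3 only the one 320 bp inside did.

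Other dense regions were mixed. At Arhgap35 5 of 6 bright probes were members, with means between 0.169 and 0.338, and the sixth was at -0.0806. At Krt25 4 of 5 were members, between 0.151 and 0.285, and the fifth was at 0.0466. At Zfp809, a zinc finger protein that silences retroviral DNA in ES cells, 4 of 6 were members, between 0.167 and 0.299, and the other 2 were at 0.122 and 0.135. In the region shared by Col10a1 and Nt5dc1, 2 member probes of Col10a1 had means of 0.265 and 0.187 and 2 of Nt5dc1 had 0.321 and 0.231. In another, listed for BC029019 and Cldn10, 4 of 6 bright probes were members, the highest a BC029019 probe at 0.495. Its members listed for Cldn10, a tight junction claudin, had 0.229 and 0.160, though these lie 97008 and 96653 bp from the listed start. A region listed for BC016201 and Cngb1 held 4 members of 6 bright probes, and so did one on chromosome 12 with no gene listed. With normexp and median centring all Arhgap35 members but the one 190 bp upstream still met the rule. At Krt25 those 21 bp inside and 241 bp upstream did, and at Zfp809 only that 395 bp inside. In the region of Col10a1 and Nt5dc1 only the Col10a1 probe 510 bp upstream did.

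Gene groups were then set beside the 14.6% of all genes with a bright probe that held a member. Reproductive homeobox genes of the Rhox cluster had a member in 4 of 7 genes (57.1%). Keratins and keratin-associated proteins, the structural proteins of epidermis and hair, did in 28 of 58 (48.3%). Chemokines and interleukins did in 19 of 56 (33.9%), and genes of differentiated tissues in 16 of 55 (29.1%). Imprinted genes did in 8 of 31 (25.8%), germ cell genes in 10 of 42 (23.8%) and trophoblast genes in 5 of 22 (22.7%). By probe the groups stood otherwise, beside 4.03% of all bright probes. Members were 22.9% of bright probes of Rhox genes, 15.1% of keratins, 10.5% of chemokines and interleukins and 8.71% of tissue genes. For imprinted (5.42%), germ cell (5%) and trophoblast genes (4.76%) the probe share was near 4.03%.

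Closer to the 14.6% of genes, or below it, were the olfactory receptors with 70 of 617 genes (11.3%) and vomeronasal receptors with 14 of 83 (16.9%). So were cytochromes P450 with 13 of 67 (19.4%), solute carriers with 49 of 283 (17.3%) and zinc finger proteins with 32 of 218 (14.7%). By probe, vomeronasal receptors (6.08%), cytochromes P450 (6.09%) and Magea genes (6.06%) lay above the imprinted, germ cell and trophoblast genes. Interferon response genes had 5 of 33 (15.2%), Magea genes 2 of 13 (15.4%), defensins 5 of 27 (18.5%), pluripotency genes 4 of 23 (17.4%) and genes of the DNA methylation machinery 3 of 20 (15.0%). The lowest were ribosomal proteins with 7 of 67 (10.4%), histone genes with 5 of 51 (9.80%), protocadherins with 3 of 31 (9.68%), primitive endoderm and fibroblast genes with 1 of 19 each (5.26%), housekeeping genes with 1 of 37 (2.70%) and developmental targets of Polycomb with 1 of 55 (1.82%). A pattern meant for the Xlr family gave 1 of 8, Slx4, which is no Xlr gene and was lower in TKO in RNA, with log2(TKO/J1) of -0.47 ± 0.05 on 2 arrays (limma adjusted p = 0.00811). These are counts without a test. Median log2 signals over the bright probes were 10.3 for keratin, 10.9 for Rhox and 10.3 for tissue genes. They were 9.99 for germ cell genes, 9.71 for trophoblast genes and 9.22 for olfactory receptors. The part of signal in the shares of the groups was not tested.

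Among the Rhox genes, Rhox4b had the highest near-start probe. At 331 bp upstream its log10 ratio was 0.310 at the lowest, 0.410 at the median and 0.583 at the highest of 7 arrays, and at 53 bp upstream the median was 0.227. Rhox2a had 3 members between 3217 and 3758 bp upstream, and the highest of them ran between 0.376 and 0.583. Rhox3a had members at 49 bp inside the gene (mean 0.203 ± 0.0477, SD, n = 7) and 1686 bp upstream (0.223 ± 0.0711). Rhox4 copies are near-identical, so probes of one may read others.

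Germ cell genes were represented by Taf7l, a germ cell subunit of the transcription factor TFIID, with 0.353 ± 0.134 at 263 bp upstream, and by Fthl17e, a ferritin-like gene of the X chromosome, with 0.278 ± 0.0509. Sycp3 of the synaptonemal complex, which pairs chromosomes in meiosis, had 0.262 ± 0.127. Asz1, which acts in the piRNA pathway of germ cells, had 0.228 ± 0.0826 (SD, n = 7 for each). All 7 arrays are above 0 for each, as the rule requires. With normexp and median centring Taf7l still met the rule, while Fthl17e (0.105), Sycp3 (0.0734) and Asz1 (0.113) did not.

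Among the keratins, Krtap9-1 had 0.366 ± 0.0722 and the hair keratin Krt84 0.280 ± 0.0821, while the simple-epithelium keratin Krt8 was just over the threshold at 0.152 ± 0.0749. Of the tissue genes, Lyz1, a lysozyme of Paneth cells, had 0.343 ± 0.107, the intestinal fatty acid binding protein Fabp2 0.320 ± 0.138 and the insulin gene Ins2 0.308 ± 0.185. Among the cytokines the T cell cytokine Il17a had 0.332 ± 0.124 and 4 members, Il20 0.303 ± 0.105 and Il10 0.263 ± 0.105 with 3 members each. Of the imprinted genes Slc38a4 had 0.350 ± 0.0852, Mest 0.211 ± 0.0985 and Nap1l5 0.197 ± 0.0791. Of these keratin, tissue, cytokine and imprinted genes only Fabp2, Il17a and Il20 met the rule at these probes with normexp and median centring. Krt8 (0.0691 there) did not meet it with loess either.

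The methylation machinery itself held 3 members. Dnmt3a had a member probe 98 bp inside the gene, which ran between 0.123 and 0.339 over the arrays with a median of 0.177. Tdg, a glycosylase that takes part in demethylation, had 0.204 ± 0.122, with 1 array as low as 0.00565. Mbd2, a reader of methylated CpG, had 0.178 ± 0.109. With normexp and median centring neither Tdg (0.0455) nor Mbd2 (0.0378) met the rule, while Dnmt3a did (0.184). Tdg did not meet it with loess either. Dppa3, a pluripotency gene that protects methylation in the early embryo, had 0.213 ± 0.0834 at 144 bp inside the gene.

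RNA was not used to choose the members, so it was tested. The labels allow either dye order on the expression arrays, and the likely one has TKO in Cy3 on replicates 1 and 3 and in Cy5 on replicate 2. This order was taken because the RNA of the deleted genes is then lower in TKO, so their direction was fixed by the choice and every RNA direction given here rests on it. Whether their array probes lie in the deleted stretch was not analysed here. Dnmt3b had log2(TKO/J1) of -2.72, -2.44 and -2.36 on the 3 arrays. Dnmt1 had -0.89 and -1.25 on 2 arrays, its spot on replicate 3 being left out as uneven. Ratios were fitted over all 13387 genes detected in either line with limma, two-sided, with Benjamini-Hochberg adjustment.

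Genes with a member probe were less often detected on the expression arrays, in counts without a test. Of 1940 such genes on the array, 38.4% were well above background in TKO on all 3 arrays and 39.0% in J1. Of 11654 genes with a bright probe and no member the shares were 55.6% in TKO and 57.1% in J1. Neither line gave a detected signal for 58.7% of member genes, against 41.5% of the others. The gap was of similar size in genes of the dimmest tertile of promoter signal (36.0% in TKO and 37.1% in J1 with a member, 52.2% and 53.1% without) and in the brightest tertile (40.6% and 42.3% with, 56.5% and 58.5% without). With 2 or more members 32.4% of 432 genes were detected in TKO and 30.6% in J1.

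Of the 801 member genes that could be tested, 153 were higher in TKO (19%) and 117 lower (14.6%) at an adjusted p under 0.05. Over all genes tested 16.1% were higher and 16.2% lower, so both shares are close to the background. Over the 7623 tested genes with a bright promoter probe 18.2% were higher and 15.6% lower. By at least 2-fold 1.67% of those 7623 were higher and 0.617% lower. With at least a 2-fold change 26 member genes were higher (3.25%, against 1.49% of all genes) and 5 lower (0.624%, against 0.672%). The median log2(TKO/J1) was 0.02 for member genes and -0.01 for all. The 1139 member genes not detected in either line are not in these counts. A gene not detected in one line enters only through the other, which favours a difference towards that other line. This concerns 44 member genes detected in TKO alone, of which 24 were called higher, and 57 detected in J1 alone. Among the 700 member genes detected in both lines, in a fit over such genes only, 128 were higher and 94 lower. These counts are given without the share over all genes of that fit, so they are not read as a result about the members.

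The counts depended on the processing of the expression arrays. With median centring in place of loess 37 member genes were higher and 24 lower, and over all genes 2.61% were higher and 3.70% lower. Without replicate 1, 115 were higher and 75 lower, and the counts over all genes fell as well. With 2 or more members per gene, 37 of 148 genes were higher (25%) and 14 lower (9.46%), against 16.1% and 16.2% of all genes tested. By at least 2-fold 10 were higher (6.76%) and 0 lower in the limma fit, against 1.49% and 0.672% of all genes. In 148 genes a count of 0 is near that last share. At an unadjusted p under 0.05 in the limma fit the lower count by at least 2-fold was 0 as well, against 90 of all 13387 genes. At any size 24 of the 148 were lower, against 2943 of the 13387.

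The strongest rise was in Rhox2a, with log2(TKO/J1) of 3.24, 3.52 and 2.39 on the 3 arrays and a fitted change of 3.05 ± 0.59 (SD, n = 3, limma adjusted p = 3.64e-06). Krt8 had 3.06, 3.09 and 2.49, a change of 2.88 ± 0.33 (adjusted p = 7.39e-07). All arrays lie on the TKO side for both. Of the placental prolactins, Prl4a1 had 2.30, 1.57 and 2.27 and was not above background in J1 on any array, so it was at least 3.99-fold higher in TKO.

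The other rises among the 10 highest rest on 2 arrays, because the spot of replicate 3 was marked as uneven and left out of the fit. Asz1 had 2.12 and 2.02, and Sct, the gut hormone secretin, had 2.19 and 2.05. Fgb, the fibrinogen beta chain secreted by liver, had 2.12 and 2.01, and Rhox4e had 2.18 and 2.28. Prl2c5, of a prolactin family with near-identical copies, had 2.34 and 2.29. Its tested probe was not above background in J1 on any array, but the gene's other probe was on some array, so no bound is given. The log2 value of Prl2c5 was 4.59 with Agilent processed signals. Arhgap10 had 1.75 and 1.60 and the interferon-induced Ifi27 had 1.69 and 1.64. Their limma adjusted p ran between 2.62e-06 and 1.27e-05. Sct is named for a probe 4075 bp upstream, and Rhox4e for one 2309 bp upstream. Of the 10 highest, Rhox2a, Rhox4e, Sct and Fgb still met the MeDIP rule with normexp and median centring. Krt8, Prl2c5, Asz1, Prl4a1, Arhgap10 and Ifi27 did not. Krt8 and Prl2c5, the latter at 0.0189 with normexp, did not meet it with loess either.

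Among the lower calls Dnmt3a was lowest, a gene whose direction is no independent result since it served to set the dye order. It had -2.49 and -2.23, with replicate 3 left out (limma adjusted p = 3.04e-06). Pdcl2, a phosducin-like gene of the testis, had -1.76, -1.27 and -1.37. Rbp7, a retinol carrier, had -1.45, -0.97 and -1.08, and Csrp2, a LIM-domain protein of smooth muscle, had -1.22, -1.02 and -1.10.

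Cd109, a surface protein that binds TGF-beta, had -1.09, -0.88 and -1.19. Short of 2-fold were Lpin1, a phosphatidate phosphatase, with -0.78 and -1.19, Auh of leucine breakdown with a fitted -0.97 ± 0.27 and Lgals4, a gut galectin, with -0.94 ± 0.08 (SD, n = 3 for both). All arrays measured were below 0 for each of these 8 genes, and the limma adjusted p ran up to 0.000503. With normexp and median centring Dnmt3a, Csrp2, Lpin1 and Auh still met the MeDIP rule. Pdcl2, Rbp7, Cd109 and Lgals4 did not.

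**Figure D5:**
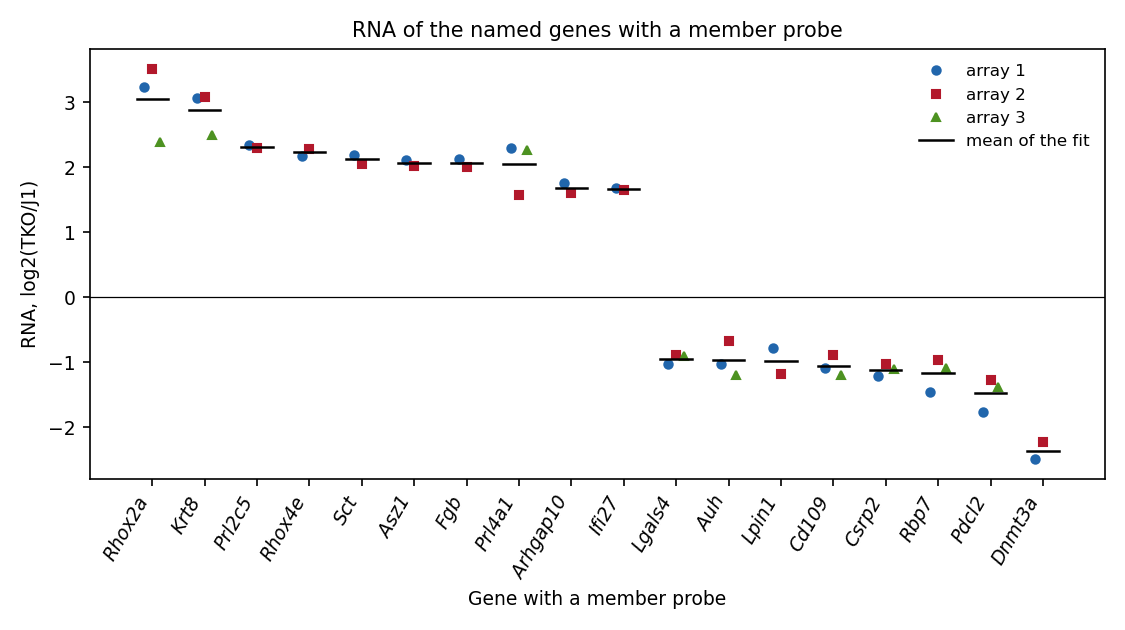
RNA as log2(TKO/J1) (y axis) for the 10 highest and 8 lowest called genes with a member probe (x axis). Symbols are arrays and lines the fitted means. Every array is above 0 for the 10 at the left and below 0 for the 8 at the right, where Dnmt3a is lowest at -2.36. Genes with 2 symbols had replicate 3 left out.

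The genes with the highest member probes were mostly below background in RNA. Of the 12 genes with the highest member probe 3 could be tested, and Rhox2a rose. Mapk6 had log2(TKO/J1) of 0.03 ± 0.13 (SD, n = 3, limma adjusted p = 0.814) and Hbs1l 0.10 ± 0.25 on 2 arrays (limma adjusted p = 0.547). A further 8, Gpr33, Efcab5 and Adh7 among them, were not well above background on all 3 arrays in either line, and the RNA of Klhl20 was not analysed here. Of the genes in the densest regions, Nt5dc1 fell, with -0.63 ± 0.18 (SD, n = 3, limma adjusted p = 0.000776). Zfp809 rose, with 0.30 ± 0.12 (adjusted p = 0.0221), a call lost with median centring (adjusted p = 0.666) and without replicate 1 (0.0592) or 2 (0.129). Arhgap35 had -0.21 ± 0.02 (adjusted p = 0.0659) and Cldn10 0.14 ± 0.02 (adjusted p = 0.218). With Agilent processed signals Cldn10 was higher in TKO, with 0.67 (limma adjusted p = 0.000219). Prl7c1, Rbp3, Krt25 and Col10a1 were not detected in either line.

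The counts by group stand beside 16.1% higher and 16.2% lower over all genes tested. Germ cell genes with a member gave 7 tested genes, of which 6 were higher in TKO. Besides Asz1 the 6 included Fthl17e with log2(TKO/J1) of 0.94 ± 0.25 (SD, n = 3, limma adjusted p = 0.000146), Taf7l with 0.93 ± 0.29 and Sycp3 with 0.33 ± 0.06 on 2 arrays (adjusted p = 0.0363, and 0.396 with median centring). All 3 tested Rhox genes were higher, Rhox3a by at least 1.56-fold since it was not above background in J1. Of 6 tissue genes 4 were higher, and of 5 keratins 3 were higher and 1 lower. Of 5 cytokine genes 1 was higher, Ccl2, a monocyte chemokine, with 1.29 ± 0.07 (adjusted p = 5.93e-06). Of 18 solute carriers 7 were higher and 4 lower, and of 14 zinc finger genes 1 was higher and 2 lower. Of 7 ribosomal protein genes 1 was higher, Rpl39l, a germ cell form of a ribosomal protein, with 1.60 ± 0.31 on 2 arrays. Both trophoblast genes tested, Krt8 and Prl4a1, were higher, as were the primitive endoderm gene Ttr and Magea5 with 1.41 ± 0.16 (limma adjusted p = 5.93e-06), the only tested members of their lists. Of 4 imprinted genes 1 was higher, of 3 interferon response genes 1 was higher and 1 lower, and of 3 cytochrome P450 genes 1 was lower, as was Dnmt3a among 2 genes of the methylation machinery. None of 2 olfactory receptor, 2 histone and 1 housekeeping genes tested was called by limma, nor was any at an unadjusted p under 0.05, and Mbd2, defensins, vomeronasal receptors and protocadherins with a member gave no tested gene. Of 3 pluripotency genes Dppa3 was higher, with 0.72 ± 0.20 (adjusted p = 0.000427, and 0.134 with median centring), and Esrrb lower, with -0.45 ± 0.06 on 2 arrays (adjusted p = 0.00990). The Esrrb call was lost with median centring (0.290) and without replicate 1 (0.0783) or 2 (0.0578).

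Markers of other cells moved with these groups. Of 16 trophoblast markers tested 14 were higher in TKO, and their summed normalised signal, in units of 1000, ran between 42.5 and 53.7 in TKO, against 11.1 to 12.2 in J1. Krt8 had log2(TKO/J1) of 2.88 and Krt18 2.34. Cdx2 and Elf5 were not above background in J1 on any array. In TKO Cdx2 was so on 2 arrays and Elf5 on 1. Of 17 primitive endoderm markers 16 were higher and 1 lower, with sums of 23.9 to 26.6 in TKO and 18.2 to 22.4 in J1. Gata6 had log2(TKO/J1) of 1.56, Dab2 2.38 and Sox17 1.38, the last on 2 arrays, while Gata4 was above background on 1 array only in each line. Of 13 fibroblast markers 8 were higher, and 1 lower, with sums of 11.9 to 16.8 in TKO and 11.9 to 12.8 in J1. Of 6 ES cell markers 3 were lower, Pou5f1 (log2(TKO/J1) of -0.72, 2 arrays), Sox2 (-0.82) and Esrrb (-0.45, 2 arrays). The sums over the ES cell markers, 72.8 to 109 in TKO and 65.5 to 86.6 in J1, overlap. Fewer cells of a type and less RNA per cell cannot be told apart in such samples, and the part of these markers in the RNA of the Krt8, prolactin and secreted-protein genes was not tested.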

How the data were processed

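Both kinds of array were 2-colour Agilent arrays read with Agilent Feature Extraction 8.5, per the submitters' processing notes, though the file headers of expression replicates 2 and 3 name an earlier version. The authors deposited log10 ratios of Cy5 over Cy3 for each MeDIP array, which differ from the scanner files by less than 0.005, and per the file headers the scanner files hold the intensity of each spot and its processed signal. The sources used here name no genome build for the array. The members and the 25 gene lists were chosen with earlier results of these data known. Members came from the deposited log10 ratios and the scanner flags, with no test of the ratios. RNA ratios were made from the deposited intensity columns with normexp (offset 50) and loess in limma 3.58.1 (R 4.3.3), with replicate 2 turned, spots marked uneven left out with 1 probe per gene, the brightest. Genes well above background on all 3 arrays in either line were tested against 0 with eBayes and called at a Benjamini-Hochberg adjusted p under 0.05. The fit was tested on simulated data. A bound ("at least") sets the brighter line's mean against the lowest signal among probes well above background. Other steps used Python 3.11.15, pandas 2.3.3, numpy 2.4.6 and matplotlib 3.10.9. Named are the 12 genes with the highest member among probes with a RefSeq symbol, and the 10 regions with most members. Also named are the 10 highest and 8 lowest RNA calls with the same sign on every array. Up to 4 genes per list with most members, the 3 probes on either side of the threshold and the deleted genes are named too. Genes were named by accession or symbol through RefSeq.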

Additional observations from a re-analysis of the deposited data

Results flagged for a closer look

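Of 83 sets of 7 arrays (member probes of the named genes and regions, the 6 probes beside the threshold and the array medians), 8, all of them member probes, had 1 array set apart from the others by more than Dixon's 95% limit. Chance flags about 1 in 20 groups, but the rule chose these probes on the same ratios and asks for values above 0 on every array, so that rate does not apply to them and high values are favoured. The array apart was the highest in all 8, and it was replicate 2, the replicate with the highest member median on both parts, in 7 of them. The part of that replicate was not tested. Efcab5, 24 bp upstream, reached 0.744 on replicate 2. Col10a1, 510 bp upstream, reached 0.364 on replicate 6. Krt25 reached 0.434 at 518 bp and 0.314 at 794 bp upstream, both on replicate 2. Zfp809 reached 0.312 at 1024 bp and 0.364 at 1790 bp upstream, both on replicate 2. The region listed as Rplp2 reached 0.340 at 843 bp upstream, and the probe listed for BC029019 reached 0.755.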

How the results depend on the processing

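No paired analysis was possible because each array holds both lines, so its ratio is already the pair. The 2851 members in 2256 regions became 787 in 680 with normexp and median centring together, 4582 probes without the brightness requirement, 5641 in 4020 with a mean of at least 0.10, and 1315 in 1145 with at least 0.20. Within the slide code shared by replicates 2 and 4 they were 1998 on part 1, and 2629 in 1902 regions on part 2. Leaving out 1 replicate gave 2483 to 3289 members in 2009 to 2528 regions. In RNA over all genes, leaving out 1 replicate gave 1432 to 1960 higher and 1450 to 1810 lower, at 2-fold 194 to 219 and 82 to 122. For member genes it gave 110 to 141 higher and 75 to 100 lower, at 2-fold 25 to 27 and 4 to 7. Agilent processed signals gave 2-fold counts of 527 and 299 over all genes and 51 and 24 for member genes. Median centring gave 350 higher and 495 lower over all genes (140 lower by 2-fold) and 37 and 24 for member genes (9 by 2-fold). Requiring detection in both lines left 17 member genes higher by 2-fold, also given without the share over all genes of that fit. The 148 genes with 2 or more members gave 37 higher and 14 lower, 10 and 0 by 2-fold, with the shares over all genes given above. Genes with a member within 1000 bp gave 99 and 60 of 449 tested (22% and 13.4%). Members that also met the rule with normexp gave 49 and 30 of 212 tested genes (23.1% and 14.2%). Over all genes tested the shares were 16.1% and 16.2%. At 2-fold the normexp members gave 13 and 2 (6.13% and 0.943%), against 1.49% and 0.672% of all genes. The differences between these shares were not tested. Mapk6 was -0.13 with median centring and -0.033 without replicate 2, and Hbs1l was -0.074 without replicate 2 and 0.28 without replicate 1. The cause of these shifts was not tested. Of 380 values for 39 named genes 3 turned direction. Of the others 20 lost the call and 2 gained it, and 23 of 39 from the authors' deposited mean, which has no test, differed by more than the spread between arrays. The higher share far upstream was also seen among members that met the rule with normexp (1.80% against 0.781%), an alternative chosen after the data were seen, as were the tertiles of signal. A slide code as random block was not run, since 3 arrays gave no correlation estimate.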
